A study of Homo sapiens with 12 samples.

Results

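Histone lysine methyltransferases are the enzymes that place methyl groups on lysines of histones, and the genes for them were examined here for changes in DNA modification during the induction of human primordial germ cell-like cells (PGCLCs). The members were 32 named genes of this enzyme group among 20007 protein-coding genes of GENCODE release 44. A differentially methylated region (DMR) was assigned to a member when its midpoint lay in the gene body or in the 2 kb upstream of it. By this rule, 367 DMRs fell in the members, out of 93837 in protein-coding genes and 153965 in all, and none was counted in more than 1 member.

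Most of these enzymes act through a SET domain, and DOT1L is the one member that does not. Methylation of H3K4 and H3K36 accompanies active promoters and transcribed gene bodies, whereas H3K27 and H3K9 methylation accompanies silencing. In mammalian germ cells these marks are remodelled while DNA methylation is erased. In this erasure 5-methylcytosine (5mC) can be oxidized to 5-hydroxymethylcytosine (5hmC), and both bases are read separately here.

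The study followed germline commitment of the human embryonic stem (ES) cell line WIS2 with 12 libraries, from 3 stages, 2 assays and 2 replicates of each. CAPS read 5hmC and TAPSβ read 5mC at single bases. The first stage, d8 DZ+PGCLC, was cells sorted as positive for a DAZL reporter on day 8. They carried transgenes for SOX17, switched on with dexamethasone, and for DMRT1, switched on with doxycycline, and were cultured with BMP2, SCF and EGF and then with SCF and EGF plus retinoic acid and Activin A. The second, N3+PGCLC, was early PGCLCs sorted as positive for a NANOS3 reporter after induction with BMP2, SCF and EGF. The reference for both was 4i ES cells, ES cells whose medium contains kinase inhibitors and which can form PGCLCs. The study reports that its DAZL reporter responds to DNA demethylation, so sorting on it is not independent of the methylome. The PGCLC stages differed in their day of culture, their medium, the transgenes, the reporter line and the sort, which cannot be told apart here, and they shared the 4i ES libraries.

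Each value below rests on 4 lists of DMRs, 1 for each modification and PGCLC stage against 4i ES cells, called by the authors on both replicates together. A hyper DMR had more of the modified base in PGCLCs than in the 4i ES reference, and a hypo DMR had less. The lists hold the position and direction of each region, without its methylation level, its p-value, its depth or its value in any library. The lists thus give neither the spread between replicates nor the depth of the libraries, and counts of DMRs are compared without a test. A gene with no DMR had none that passed the authors' thresholds, which does not show that its methylation was equal.

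In d8 DZ+PGCLC, 25 of 32 members (78.1%) held at least 1 hyper-5hmC DMR, where 45.7% of all protein-coding genes did. The members held 140 such gains of 5hmC. Loss of 5mC was as widespread, with 214 hypo-5mC DMRs in 25 members (78.1%), where 50% of all protein-coding genes held at least 1. The opposite directions were rare. No member held a hypo-5hmC DMR (1.85% of all genes did), and 2 members, EHMT1 and SETDB1, held 1 hyper-5mC DMR each (6.41% of all genes did).

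In N3+PGCLC no member held a DMR of 5hmC in either direction, where 2.83% of all genes held a hyper-5hmC and 3.8% a hypo-5hmC DMR. For 5mC the members held 1 hypo-5mC DMR, in SMYD2 (3.2% of all genes held at least 1), and 10 hyper-5mC DMRs in 7 members (8.95% of all genes). These 7 were EHMT1 with 3, SETD2 with 2, and KMT5A, KMT5B, KMT5C, SMYD4 and SETD3 with 1 each. The members thus held far more DMRs at d8 DZ+PGCLC than at N3+PGCLC, as did the other protein-coding genes. Those held 55594 hypo-5mC DMRs at d8 DZ+PGCLC and 717 at the other stage.

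The gain of 5hmC and the loss of 5mC in d8 DZ+PGCLC fell in the same 25 members, and none held only one kind. Both kinds occurred together in 40.6% of all genes, while 1004 genes held gains alone and 1873 held losses alone. Losses outnumbered gains in 18 members, and the counts were equal in 5. Gains outnumbered losses only in KMT2A, with 12 against 8, and in EHMT1, with 18 against 15. More losses than gains was the general pattern, with 55594 losses and 31746 gains in the other protein-coding genes. Gains and losses were called from different assays, with a smaller required difference for 5hmC than for 5mC. Which kind was more numerous therefore depends on those thresholds. No DMR of any list fell in 6 members, namely KMT2B, SETD1A, EHMT2, SMYD1, SMYD5 and SETD6, or in 41% of all genes. KMT5C had no DMR in d8 DZ+PGCLC and a single one at the earlier stage.

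**Figure D1:**
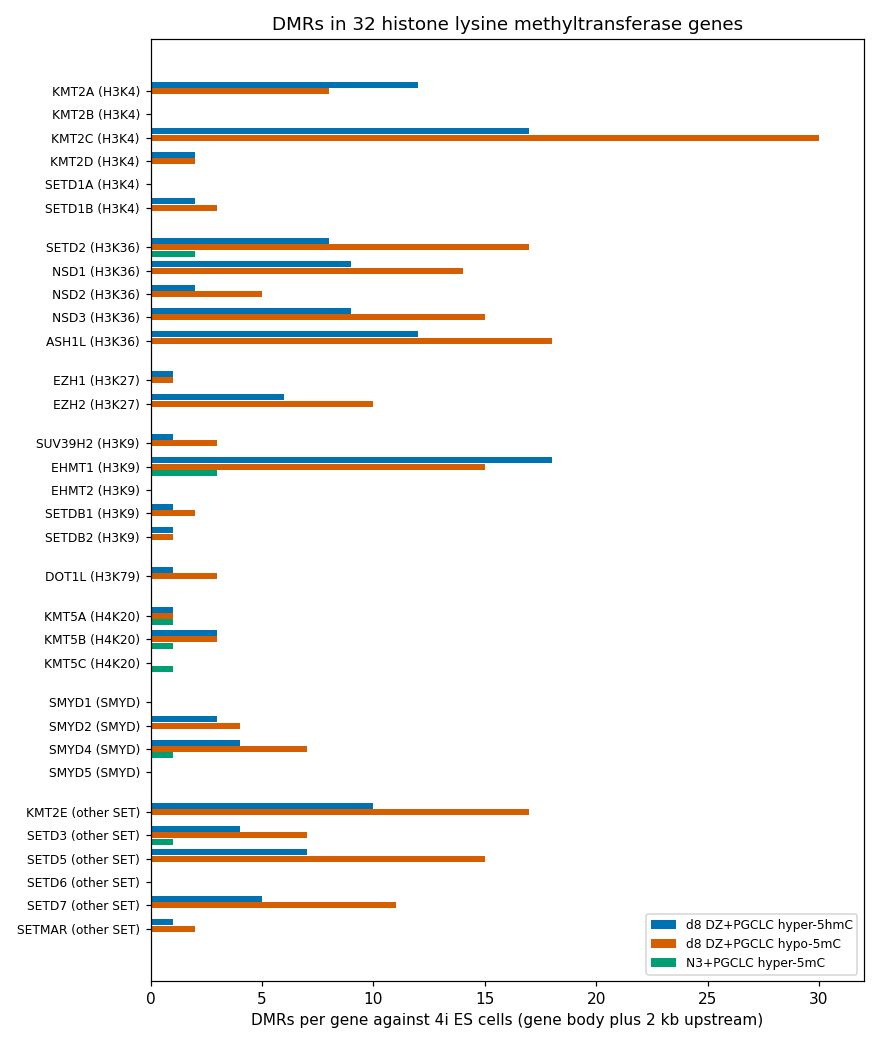
Number of DMRs against 4i ES cells (x axis) in each of the 32 members (y axis), grouped by histone substrate, for hyper-5hmC in d8 DZ+PGCLC, hypo-5mC in d8 DZ+PGCLC and hyper-5mC in N3+PGCLC. KMT2C reached the longest bar with 30 hypo-5mC DMRs, EHMT1 had the most hyper-5hmC DMRs with 18, and no N3+PGCLC bar exceeded 3.

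Long genes offer more room for DMRs, so the counts were also expressed per 1000 CpGs. The searched sequence of the members had a median of 55.6 kb and 988 CpGs, against 29.5 kb and 476 CpGs over all protein-coding genes. In d8 DZ+PGCLC, gains of 5hmC plus losses of 5mC reached a median of 5.63 per 1000 CpGs in the members, against 1.62 over all genes. A place called in both lists entered this sum as a gain and again as a loss, in the members as in all genes. With CpGs and DMRs summed over genes before division, the densities were 8.38 in the members and 5.60 over all genes. The hyper-5hmC DMRs covered 1.79% of the members' CpGs (1.09% over all genes) and the hypo-5mC DMRs 3.67% (2.37% over all genes). The count followed gene length closely, with a Spearman rho of 0.92 across the 32 members and 0.73 across all genes. The density was lower in members with more CpGs per kb, with a rho of −0.65 across the members and −0.42 across all genes. These correlations are across genes, which share libraries and calls, and are given as a description.

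**Figure D2:**
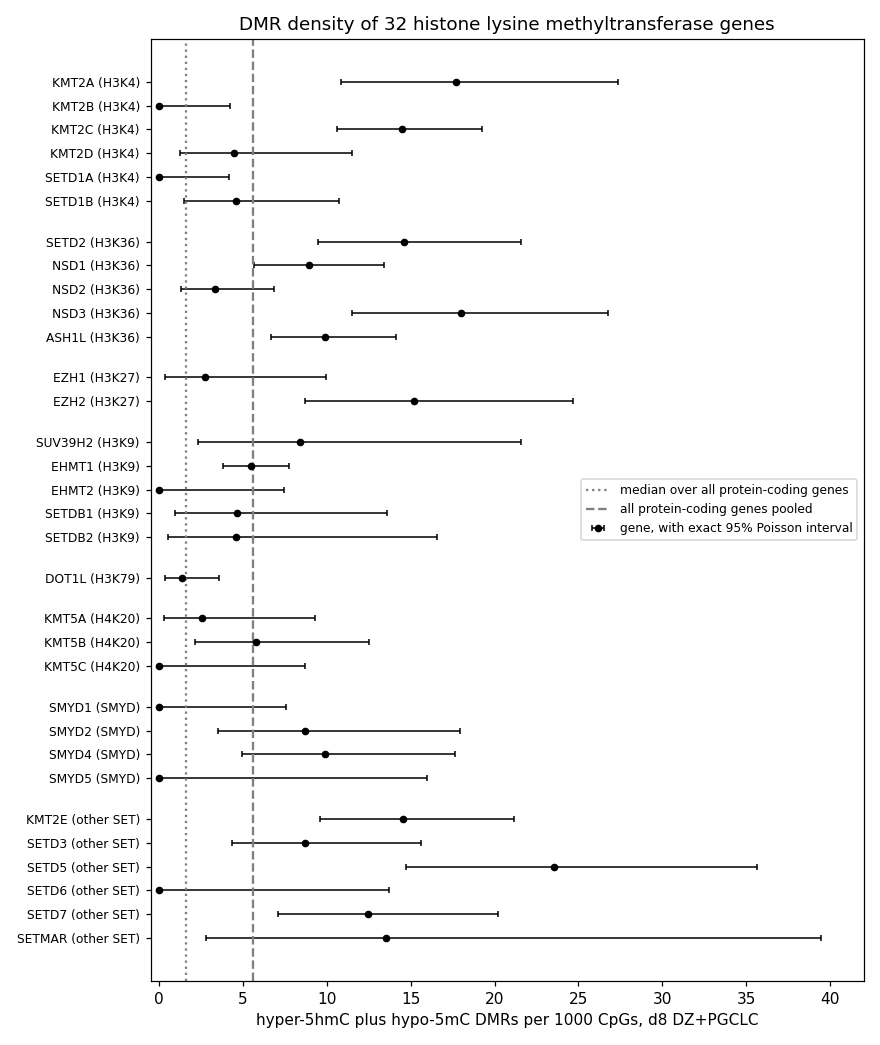
Hyper-5hmC plus hypo-5mC DMRs of d8 DZ+PGCLC per 1000 CpGs (x axis) in each member (y axis), with exact 95% Poisson intervals that cover counting error only. The dashed line marks the pooled density over all protein-coding genes (5.60) and the dotted line their median (1.62); SETD5 lies farthest to the right at 23.5.

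An exact 95% Poisson interval for the density, which covers counting error only and treats DMRs of a gene as independent, lay above the pooled value of all genes in 10 members. These were SETD5, NSD3, KMT2A, EZH2, SETD2, KMT2E, KMT2C, SETD7, ASH1L and NSD1. The interval lay below it in KMT2B, SETD1A and DOT1L, and held it in the other 19. Such intervals were given for the members only, so the 10 have no share of all genes beside them. By density alone, the 10 ranged from NSD1, above 79.3% of all protein-coding genes, to SETD5, above 97.6%. Since 99 of the members' 140 gains overlapped a loss, the DMRs of a gene were not independent and the intervals are too narrow.

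Among the H3K4 methyltransferases, 4 of 6 genes held both kinds of DMR in d8 DZ+PGCLC, with 33 hyper-5hmC and 43 hypo-5mC DMRs in total. Both kinds occurred together in 40.6% of all genes. KMT2C, the catalytic subunit of a COMPASS complex that monomethylates H3K4 at enhancers, held more DMRs than any other member, with 17 hyper-5hmC and 30 hypo-5mC. These lay along its gene body, chr7:152134922-152436644, and the 2 kb upstream. Of its 17 gains, 11 overlapped a loss and 5 had identical ends in both lists. One of these identical pairs lay in coding exon 2 (chr7:152358600-152358671) and another in coding exon 3 (chr7:152330387-152330920). KMT2C has near-identical sequence elsewhere in the genome, to which reads of this gene may also map. For 10 of its 47 DMRs, the surrounding 500 bases matched another place in hg38 at 95% identity or more, and 37 were left without them.

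KMT2A, which trimethylates H3K4 and maintains HOX gene expression, held 12 hyper-5hmC and 8 hypo-5mC DMRs, or 17.7 per 1000 CpGs (95% interval 10.8 to 27.4). Of its 12 gains, 6 had the same first and last base as a loss, 1 more overlapped one, and the remaining 5 lay on no loss. A pair of the identical regions is shown because both modifications were called over exactly the same few CpGs there. The first lay in coding exon 3, 35.3 kb from the start site, and the second in intron 5. They are written 5′ to 3′ on the plus strand, which is the sense strand of KMT2A, with CpGs in capitals.
KMT2A, hg38, chr11:118471676-118471948: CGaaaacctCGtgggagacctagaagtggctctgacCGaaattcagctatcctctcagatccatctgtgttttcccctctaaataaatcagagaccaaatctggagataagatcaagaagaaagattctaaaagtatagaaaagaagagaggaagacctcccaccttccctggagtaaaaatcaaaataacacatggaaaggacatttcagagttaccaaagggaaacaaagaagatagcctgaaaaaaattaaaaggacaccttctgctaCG
KMT2A, hg38, chr11:118478496-118478543: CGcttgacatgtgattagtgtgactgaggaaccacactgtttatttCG
The exonic region carried 4 CpGs in 273 bases, and 3 of them sat together at its 5′ end. The intronic region had a CpG at each end only and also held a match to ACANTGT, the core of the DMRT1 motif. Of the 20 DMRs of KMT2A, 13 also lay in another annotated protein-coding gene, either an overlapping model without a symbol or TTC36, and 7 lay in KMT2A alone.

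KMT2D, the partner enzyme of KMT2C at enhancers, held 2 DMRs of each kind, and SETD1B, a broad H3K4 trimethylase, held 2 hyper-5hmC and 3 hypo-5mC DMRs. KMT2B and SETD1A, the paralogues of KMT2A and SETD1B, had no DMR in any list with 867 and 880 CpGs searched. At a count of 0 their densities had upper 95% limits of 4.25 and 4.19 DMRs per 1000 CpGs.

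All 5 H3K36 methyltransferases held both kinds of DMR in d8 DZ+PGCLC, where 40.6% of all genes did. They held 40 hyper-5hmC and 69 hypo-5mC DMRs, at a median density of 9.88 and a pooled density of 10.1 per 1000 CpGs. All 5 are long, from 112.8 kb searched in NSD2 to 229.9 kb in ASH1L, against a median of 29.5 kb over all genes. ASH1L, which dimethylates H3K36, had 12 gains and 18 losses. SETD2, the trimethylase that travels with elongating RNA polymerase II, had 8 gains and 17 losses. NSD1 and NSD3 had 9 gains each, with 14 losses in NSD1 and 15 in NSD3. NSD2 was the exception of the group with 2 gains and 5 losses, or 3.33 per 1000 CpGs (1.34 to 6.85), and its nearest DMR to the start site was 62.7 kb away, the farthest among the members. In SETD2, 4 of 8 gains had ends identical to a loss, all of them in introns 1 and 7. In NSD1, 7 of 9 gains overlapped a loss, the widest at chr5:177157022-177158081 in intron 2 with 1060 bases and 16 CpGs. One further loss of NSD1 matched sequence elsewhere in hg38.

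Of the H3K27 methyltransferases, the catalytic subunits of Polycomb repressive complex 2 (PRC2), EZH2 held 6 hyper-5hmC and 10 hypo-5mC DMRs and EZH1 held 1 of each. The density was 15.2 per 1000 CpGs in EZH2 (8.68 to 24.7) and 2.75 in EZH1 (0.33 to 9.94). EZH2 had the widest hyper-5hmC DMR of all members, chr7:148825583-148826818 in intron 8, with 1236 bases and 16 CpGs. It overlapped a hypo-5mC DMR of 1107 bases that was centred in coding exon 8. Of the 6 gains in EZH2, 5 overlapped a loss, though none had identical ends.

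The H3K9 methyltransferases were mixed. EHMT1, which dimethylates H3K9 in a complex with EHMT2, held 18 hyper-5hmC and 15 hypo-5mC DMRs, whereas EHMT2 had none in any list (0 of 494 CpGs searched lay in a DMR). With its 6003 CpGs, the most of any member, EHMT1 had a density of 5.50 per 1000 CpGs (3.78 to 7.72), close to the pooled value of all genes. Of its 18 gains, 13 overlapped a loss and none had identical ends. SUV39H2, a trimethylase of heterochromatin, held 1 gain and 3 losses, SETDB1, which silences retroelements, 1 gain and 2 losses, and SETDB2 1 of each. All 4 DMRs of SUV39H2 also lay in DCLRE1C, both of SETDB2 in PHF11, and 2 of the 3 in SETDB1 in CERS2.

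EHMT1 and SETDB1 also carried the members' only hyper-5mC DMRs of d8 DZ+PGCLC. In EHMT1 the region was short, with 59 bases and 3 CpGs in intron 1 (chr9:137680042-137680100). In SETDB1 it was 583 bases wide with 37 CpGs and lay upstream of the gene with its midpoint at −0.827 kb from the start site (chr1:150925245-150925827). Its GC content was 50.8% and its observed to expected CpG ratio 0.991.

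DOT1L, the H3K79 methyltransferase, had 2864 CpGs but only 1 hyper-5hmC and 3 hypo-5mC DMRs, or 1.40 per 1000 CpGs (0.38 to 3.58). Of the H4K20 methyltransferases, KMT5A, which monomethylates H4K20, held 1 DMR of each kind in d8 DZ+PGCLC and KMT5B, which adds further methyl groups, held 3 of each. KMT5C, the paralogue of KMT5B, held none there. Each of these 3 genes held 1 hyper-5mC DMR in N3+PGCLC, which made H4K20 the only substrate group with an N3+PGCLC DMR in every gene. The group has 3 genes, and the share of all genes with such a DMR was 8.95%.

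In the SMYD family, SMYD2 held 3 hyper-5hmC and 4 hypo-5mC DMRs and SMYD4 held 4 and 7, while SMYD1 and SMYD5 had none. The other SET domain proteins had the highest group densities, with a median of 13.0 and a pooled value of 13.6 per 1000 CpGs. KMT2E held 10 gains and 17 losses, SETD5 7 and 15, SETD7 5 and 11, SETD3 4 and 7, and SETMAR 1 and 2, whereas SETD6 had none. All 3 DMRs of SETMAR also lay in SUMF1. Several of this group are not established histone methyltransferases in spite of their SET domain. KMT2E is thought to lack catalytic activity, SETD3 methylates a histidine of actin, and SETD6 is best known for methylating the NF-κB subunit RELA. SETD7 monomethylates H3K4 and many other proteins, and SETMAR joins a SET domain to a transposase.

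SETD5, a SET domain protein whose loss of function causes intellectual disability in people, was the densest member with 23.5 DMRs per 1000 CpGs (14.7 to 35.6), above 97.6% of all protein-coding genes. Its losses covered 10.4% of its 935 CpGs. Of 7 gains, 6 overlapped a loss and 4 had identical ends. One of these lay in coding exon 18 and is shown, on the plus strand with CpGs in capitals, as a pair inside protein-coding sequence.
SETD5, hg38, chr3:9464457-9464647: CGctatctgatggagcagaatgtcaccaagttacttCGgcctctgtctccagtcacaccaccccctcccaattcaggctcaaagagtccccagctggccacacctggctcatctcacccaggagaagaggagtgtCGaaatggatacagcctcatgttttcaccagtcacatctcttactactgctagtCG
It carried 4 CpGs in 191 bases. A second identical pair followed in intron 18 at chr3:9464965-9465175, so that 2 separate regions of the gene lost 5mC and gained 5hmC within less than 1 kb. The last exon of SETD5 held 2 further losses without a gain, of 503 and 1242 bases.

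Counts in KMT2E and SETD7 depended on the gene model. The GENCODE gene of KMT2E starts well upstream of its canonical transcript, and 1 of its gains and 5 of its losses lay upstream of the canonical start site. For SETD7 the canonical transcript with its 2 kb upstream held 4 of the 16 DMRs. The widest hypo-5mC DMR of all members lay in the last exon of SETD7 (chr4:139505876-139507741), with 1866 bases and 23 CpGs, and a hyper-5hmC DMR of 297 bases lay inside it.

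The 8 members with most DMRs were KMT2C with 47, EHMT1 with 33, ASH1L with 30, KMT2E with 27, SETD2 with 25, NSD3 with 24, NSD1 with 23 and SETD5 with 22. Together they held 231 of the 354 gains and losses of d8 DZ+PGCLC (65.3%).

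**Figure D3:**
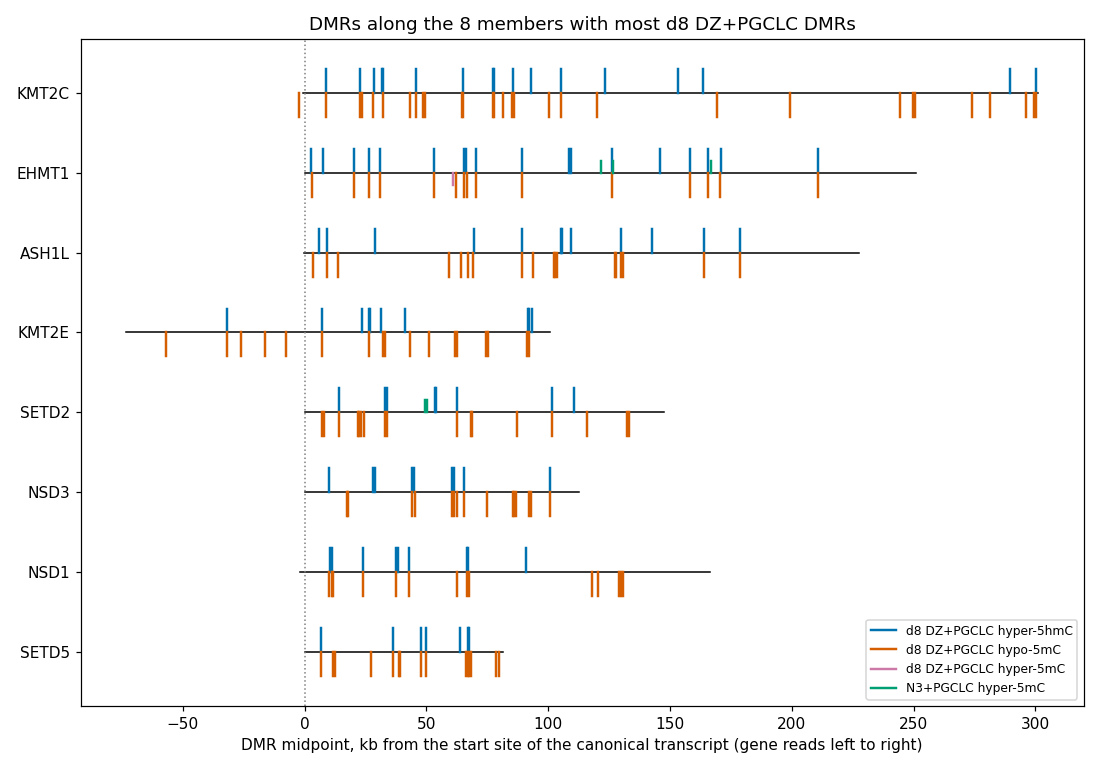
Midpoints of DMRs along the 8 members with most d8 DZ+PGCLC DMRs, as distance in kb from the start site of the canonical transcript (x axis), with genes reading left to right. Hyper-5hmC and N3+PGCLC hyper-5mC DMRs stand above the line and hypo-5mC and d8 DZ+PGCLC hyper-5mC DMRs below it; none of them falls within 2 kb of a start site.

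DMRs were nearly absent around the start sites. The 2 kb on either side of the members' start sites held 16.5% of the searched CpGs but 2 of the 354 gains of 5hmC and losses of 5mC in d8 DZ+PGCLC (0.565%). Over all genes these flanks held 16.1% of CpGs and 4.52% of such DMRs. In the 25 members with such gains or losses, the nearest of them was a median of 7.21 kb from the start site, and in 24 it was more than 2 kb away. Only 4 DMRs of any kind lay upstream of a member, among them the SETDB1 hyper-5mC DMR and a hypo-5mC DMR of KMT2C at chr7:152438057-152438509. The KMT2C region is among the regions with a match elsewhere in hg38.

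Within genes, 110 of the 140 hyper-5hmC DMRs lay in introns and 29 (20.7%) in an exon of any annotated transcript. Of the 214 hypo-5mC DMRs, 177 lay in introns and 35 (16.4%) in exons. Exons made up 15.7% of the members' sequence and 22.4% of their CpGs. By the canonical transcript alone, 10 gains and 11 losses lay in coding exons. No DMR of either kind was centred in a window with the composition of a CpG island, which allows shares of up to 2.67% of gains and 1.76% of losses (Wilson 95% limits). Such windows were as rare in the other protein-coding genes, with 0 of 31746 gains and 52 of 55594 losses.

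The hyper-5hmC DMRs were short, with a median of 251.5 bases and 4 CpGs and a range from 4 to 1236 bases. The hypo-5mC DMRs had a median of 377 bases and 6 CpGs and ranged from 6 to 1866 bases. In the other protein-coding genes the medians were 272 bases and 4 CpGs for gains and 356 bases and 5 CpGs for losses.

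Gain and loss met at the same places. Of the 140 hyper-5hmC DMRs in members, 99 overlapped a hypo-5mC DMR by at least 1 base (70.7%, Wilson 95% interval 62.7 to 77.6%), against 68.2% of 31746 in the other protein-coding genes. For 33 gains (23.6%, 17.3 to 31.2%) the loss had identical ends, against 25.3% in the other genes. Seen from the other side, 99 of 214 hypo-5mC DMRs overlapped a gain (46.3%, 39.7 to 52.9%), against 38.9% in the other genes. The members' shares of gains on a loss and of identical ends lay within 3 percentage points of the other genes, and their intervals held the other genes' shares. The interval for losses on a gain did not hold it, though DMRs of one gene are not independent and these intervals cover counting error only.

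**Figure D4:**
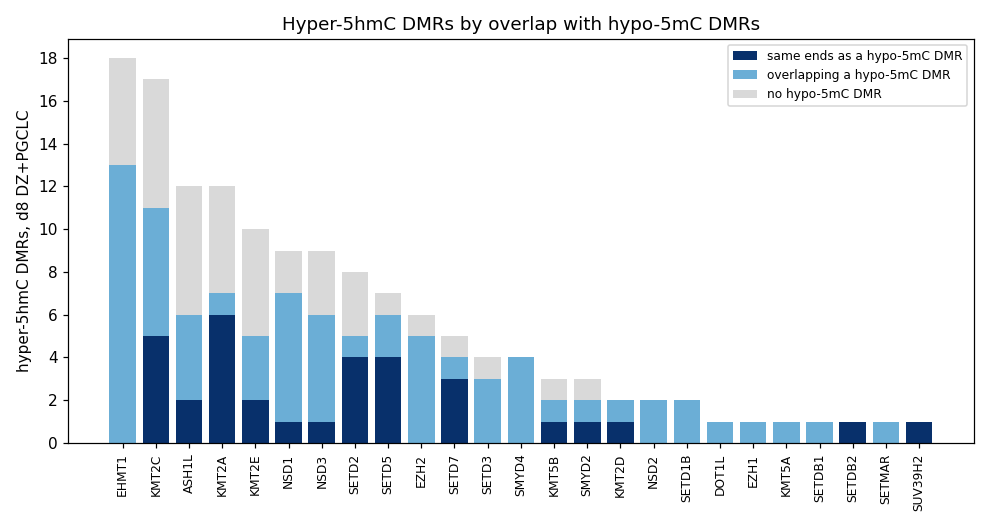
Hyper-5hmC DMRs of d8 DZ+PGCLC in each of the 25 members that held any (y axis, number of DMRs), split into those with the same ends as a hypo-5mC DMR, those that overlapped one otherwise and those on none. EHMT1 had 13 of 18 on a loss and none with the same ends, while KMT2A had 6 of 12 with the same ends.

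DMRT1 was induced in d8 DZ+PGCLC, so the core of its motif, ACANTGT, was searched, on both strands, within 500 bases around the midpoint of every DMR. It occurred at 36 of 140 hyper-5hmC DMRs (25.7%, 19.2 to 33.5%) and at 57 of 214 hypo-5mC DMRs (26.6%, 21.2 to 32.9%) of the members. In the other protein-coding genes it occurred at 27.6% of gains and 26.7% of losses. Within the DMR itself the shares were lower, at 14.3% of gains and 20.6% of losses in the members, against 18.8% of gains and 22.4% of losses in the other genes. A match in sequence is not a bound site, and the members' shares did not stand apart from those of the other genes.

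The 11 DMRs of N3+PGCLC were compared one by one with d8 DZ+PGCLC. None met a DMR of the same modification and direction in d8 DZ+PGCLC. In SETD2, the hyper-5mC regions of N3+PGCLC lay next to each other in exon 5 (chr3:47113763-47113997) and intron 4 (chr3:47114525-47114858), 50.2 and 49.4 kb from the start site. In KMT5C the region lay in coding exon 2 (chr19:55341801-55342117) with 20 CpGs in 317 bases, the most CpGs of the 11. The KMT5A region was the widest, with 786 bases and 13 CpGs in intron 5 (chr12:123401807-123402592), and that of KMT5B covered 434 bases and 8 CpGs in intron 2 (chr11:68185915-68186348). The SETD3 region lay at chr14:99412236-99412486 with 6 CpGs. The SMYD4 region (chr17:1829001-1829147) had 3 CpGs, lay 0.828 kb inside the gene and also fell in or just upstream of RPA1. The single hypo-5mC region of N3+PGCLC was in intron 5 of SMYD2 (chr1:214319100-214319854), with 755 bases and 10 CpGs.

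In EHMT1, 3 regions had higher 5mC in N3+PGCLC than in 4i ES cells (chr9:137740464-137740576, chr9:137745561-137745757 and chr9:137785775-137786283). The middle one overlapped a region of lower 5mC in d8 DZ+PGCLC (chr9:137744976-137745660), and it was the only place in the members where the stages had opposite directions of 5mC. It is shown on the plus strand with CpGs in capitals, and the loss of d8 DZ+PGCLC ended at base 137745660, within it.
EHMT1, hg38, chr9:137745561-137745757: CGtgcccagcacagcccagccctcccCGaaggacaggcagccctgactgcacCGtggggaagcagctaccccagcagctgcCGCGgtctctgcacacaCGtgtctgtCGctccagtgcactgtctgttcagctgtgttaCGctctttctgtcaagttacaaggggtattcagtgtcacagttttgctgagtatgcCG
It had 9 CpGs in 197 bases and lay in intron 6 of the canonical transcript and in an exon of another. In the other protein-coding genes, 26 of 2208 hyper-5mC DMRs of N3+PGCLC (1.18%) overlapped such a loss, and 234 (10.6%) overlapped a hyper-5mC DMR of d8 DZ+PGCLC.

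The 39 genes for partners of these enzymes were counted in the same way. In d8 DZ+PGCLC, 27 of them (69.2%) held 147 hyper-5hmC DMRs, where 45.7% of all genes held at least 1. Losses of 5mC fell in 29 partner genes (74.4%) with 271 hypo-5mC DMRs, where 50% of all genes held at least 1. DPY30, a core subunit of the COMPASS H3K4 complexes, held 29 DMRs, and LCOR, whose locus also encodes a PRC2 accessory protein, held 48. CDYL, a chromodomain protein tied to H3K9 and H3K27 methylation, held 38, and MLLT10, a cofactor of DOT1L, held 42. Each of these was named as the fullest gene of its list. They are long, with 174.0 kb searched in DPY30, 165.7 kb in LCOR, 251.4 kb in CDYL and 221.0 kb in MLLT10. The median over all genes was 29.5 kb. Among the COMPASS subunits 6 of 12 held gains and 8 of 12 losses, and among the PRC2 subunits 8 of 11 held gains and 8 of 11 losses.

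Hyper-5mC DMRs of d8 DZ+PGCLC were found in 5 of the 39 partner genes (12.8%), where 6.41% of all genes held at least 1. JARID2 and AEBP2, accessory subunits of PRC2, and CDYL held 2 each, and EED and PHF19, also of PRC2, held 1 each. In N3+PGCLC, 5 partner genes held 7 hyper-5mC DMRs, with 2 in JARID2, 2 in AEBP2 and 1 each in CDYL, MLLT1 and PPHLN1 (8.95% of all genes held at least 1), and ASH2L held the only hypo-5hmC DMR (3.8% of all genes). JARID2, AEBP2 and CDYL thus held hyper-5mC DMRs at both stages, as EHMT1 did among the members. All of them are long, with 278.0 kb searched in JARID2, 318.8 kb in AEBP2, 251.4 kb in CDYL and 253.0 kb in EHMT1, against a median of 29.5 kb over all genes. The share of all genes with hyper-5mC DMRs at both stages was not counted, so these genes have no background beside them.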

How the data were processed

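The authors trimmed reads with Trim Galore, mapped them to human GRCh38, removed duplicates with Samtools and called modified bases with asTair. They called DMRs with DMRfinder on both replicates of each stage, with a smaller required difference for 5hmC than for 5mC. Versions are not given in the sources used here. The 4 deposited tables hold chromosome, start, end and a word for the direction of each region. All 16 columns were used, and starts were shifted to count from 1 (hg38).

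The members and lists were chosen with earlier results of these data known, and no test was run. DMRs were assigned by midpoint to the gene body plus 2 kb upstream of 20007 protein-coding genes (GENCODE release 44). CpG-island-like windows had a GC content from 55% and observed over expected CpG from 0.65. Windows of 500 bases were aligned to hg38 with minimap2 2.31. Python 3.11.15, NumPy 2.4.6, SciPy 1.17.1 and pysam 0.24.0 were used, and counting was tested on simulated regions. Members described region by region were those with any N3+PGCLC or hyper-5mC DMR, the 8 with most DMRs, the 5 densest with at least 3 DMRs, and those with an upstream DMR, of which 1 pair is not reported here. Alternatives changed gene span, overlap, smallest DMR, merging and shared genes.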

Additional observations from a re-analysis of the deposited data

Results flagged for a closer look

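The hyper-5mC DMR of N3+PGCLC in EHMT1 that starts at base 137745561 of chromosome 9 had the opposite direction to the hypo-5mC DMR of d8 DZ+PGCLC that it overlapped. The difference between the stages was not tested, since the lists give a direction and no level, and both stages were set against the same 4i ES libraries.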

How the results depend on the processing

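Of 139 summary values under the alternatives, 128 stayed within 1.5 times or within their interval and 11 moved. The 128 include the counts of hypo-5hmC in d8 DZ+PGCLC and of 5hmC in N3+PGCLC, which were 0 under every alternative. With DMRs of at least 5 CpGs only, the members of d8 DZ+PGCLC held 67 hyper-5hmC DMRs, 130 hypo-5mC DMRs and 1 hyper-5mC DMR in 1 member. With the gene body alone, 1 hyper-5mC DMR in 1 member remained, since the SETDB1 region lies upstream. Per 10 kb in place of per 1000 CpGs, the members' median density was 5.46 times that of all genes, against 3.47 times. By the canonical transcript, 12.9% of gains and 9.81% of losses lay in exons. Inside the DMR alone, ACANTGT occurred in 14.3% of gains and 20.6% of losses, against 18.8% of gains and 22.4% of losses in the other protein-coding genes. Of 256 values for single genes, 29 moved, and the 227 that did not included members at 0 throughout, such as KMT2B. With at least 5 CpGs per DMR, SETD5 kept 9 of its 22 gains and losses, NSD3 9 of 24 and KMT2A 7 of 20. EZH2 kept 8 of 16 and SETD2 8 of 25. These were the 5 densest members. KMT2C kept 23 of 47 and EHMT1 27 of 33, so the order of these fullest members reversed. The check of matches elsewhere in hg38 was added after the data had been seen.

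No paired analysis was possible because the lists pool both replicates and hold no value per library, and leaving out a replicate could not be run for the same reason. The lists used here give no depth, replicate spread or size of difference in methylation.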
